A study of Bos taurus with 21 samples.

Results

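Serum extracellular vesicles of cows with either form of mastitis were compared with those of healthy cows, to find the miRNAs that stood on the same side of the healthy cows in both forms. The comparison took every sample of the study, 21 of 21 libraries: 14 from cows with mastitis, of which 7 had subclinical and 7 had clinical disease, against 7 from healthy cows that served as controls. The 2 forms carried equal weight, so the tested quantity was the average of subclinical minus healthy and clinical minus healthy. Each library was taken as 1 cow, and age, breed, parity and pathogen were not given in the labels used here. All 3 groups were sampled in the same way: RNA was taken from vesicles of blood serum, not of milk or udder, and small RNA was sequenced in bulk. In such a library, fewer vesicles from a cell type and less of a miRNA per vesicle cannot be told apart.

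Mastitis is inflammation of the udder, most often after bacteria enter the teat canal. Clinical mastitis shows in the milk or the animal, whereas subclinical mastitis is found only by testing the milk, as by its cell count. A miRNA is a short RNA that guides Argonaute proteins to matching sites in messages and lowers their output, and cells release part of their miRNAs inside vesicles that circulate in blood. In blood the cargo comes largely from blood cells, platelets, endothelium and liver, and many miRNAs are known for one of these sources, such as miR-223 in neutrophils or miR-122 in hepatocytes.

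The deposited values were a signal in which 1000000 stands for all reads of a kind of row, scaled by the authors separately for 298 rows with known miRNA names and for 549 numbered rows that carry a chromosome or contig and a number as their only name. Of these 847 rows, 598 were tested, 131 known and 467 numbered, which reached a signal of 1 in no fewer than 7 libraries. The reads behind the known rows were few: 1332 to 33776 per library, against 11330 to 44607 for the numbered rows. Known reads averaged 12601 ± 10766 in mastitis libraries and 2904 ± 1580 in healthy ones (SD, n = 14 and n = 7), and known miRNAs read at least once averaged 119.6 ± 39.0 in mastitis and 78 ± 22.3 in healthy libraries. An exact permutation test over all 116280 splits gave p = 0.0264 for reads and p = 0.0194 for miRNAs read (two-sided), both 0.0529 after adjustment over 4 library measures. The known share of all reads was 27.1% ± 19.2 in mastitis and 12.0% ± 9.81 in healthy libraries (exact p = 0.0685, adjusted 0.0914). The 10 most-read known miRNAs of each library took 78.0% ± 4.32 of its known reads in mastitis and 76.7% ± 6.40 in healthy cows (exact p = 0.594). The subclinical libraries averaged 16184 known reads and the clinical ones 9018, but 4892 without clinical 7. The clinical median was 3259 and the healthy median 2078, and in the shallowest healthy library 1 known read was worth a signal of 751.

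**Figure D1:**
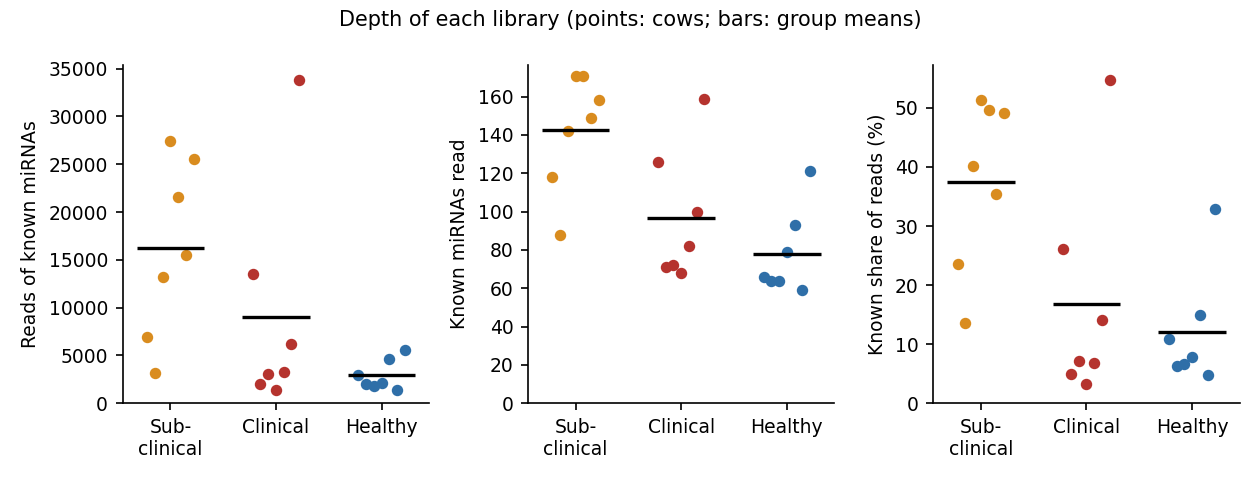
Each point is 1 library and each bar a group mean, for the reads of known miRNAs, the number of known miRNAs read and the known share of all reads, on linear axes from 0. The subclinical libraries average 16184 known reads, the clinical 9018 and the healthy 2904, and 1 clinical library reaches 33776.

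miR-2478 was the one miRNA with a called difference, and the call depended on the test. A difference was called at an adjusted p under 0.05. It was lower in both forms: its signal ran over 266, 983 and 5523 (lowest, median, highest) in the 14 mastitis cows, against 901, 4331 and 34567 in the 7 healthy cows. The groups overlapped over the lower part of the healthy range, and the highest mastitis value lay above the healthy median. Every one of the 14 mastitis cows lay below the healthy mean, which healthy 2 pulled up. The mean was 1444 ± 1394 in mastitis and 9914 ± 12028 in healthy cows (SD), 6.87-fold lower. The read counts behind this were 153 reads over the 14 mastitis libraries and 164 over the 7 healthy ones, although the mastitis libraries held more known reads.

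In subclinical cows miR-2478 averaged 848 ± 389, and in clinical cows 2039 ± 1798, so both forms lay below the healthy cows and the subclinical cows lay lowest. edgeR's quasi-likelihood test on the recovered reads gave a log2 change of -2.74 (adjusted p = 0.0436), and DESeq2 gave -2.47 (adjusted p = 0.00264). limma on the signal, the test set as the main one, gave -2.20 with a standard error of 0.56 and did not call it (adjusted p = 0.379). By limma the subclinical difference was -2.61 (adjusted p = 0.0378), the clinical one -1.78 (adjusted p = 0.557), and clinical minus subclinical 0.83 (adjusted p = 0.602). One healthy library weighed most: without healthy 2, where the signal was 34567, the healthy mean was 5806, the fold 4.02 and the edgeR change -1.92 (adjusted p = 0.252). The edgeR call was also lost when subclinical 2, clinical 2, clinical 6 or healthy 5 was left out, and without the 3 libraries of fewest known reads (healthy 3, healthy 6 and clinical 4), and it held in 17 of 23 such fits. With the known reads of each library as a covariate, the limma change was -1.48. miR-2478 is a miRNA named in cattle, and in RefSeq ARS-UCD2.0 its gene overlaps no other gene.

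Across all 598 rows limma called none (0%), and 56 rows (9.36%) had an unadjusted p under 0.05. edgeR called 1 row (0.167%), with 55 (9.2%) under an unadjusted 0.05. DESeq2 called 1 of the 147 rows to which it gave an adjusted p (0.68%), with 57 of 598 rows (9.53%) under an unadjusted 0.05. The call by edgeR and the call by DESeq2 were both miR-2478. The lowest limma adjusted p was 0.379. No row had all 14 mastitis cows above, or all 14 below, all 7 healthy cows (0%).

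The sign was the same in both forms for 365 of the 598 rows (61.0%), 175 above and 190 below the healthy cows. The 2 form differences share the same 7 healthy cows, which by itself pulls their signs together, so this share is a description and not a test. Among the known miRNAs 87 of 131 had the same sign (66.4%), 59 above and 28 below. Rows unread in healthy cows could be tested through the mastitis libraries, which held more known reads. The tilt to the higher side is therefore a description as well. Of the 56 rows under an unadjusted 0.05, 18 were above in both forms, 32 were below in both and 6 had opposite signs. A small p on the average of the 2 form differences by itself favours equal signs, so such splits are descriptions too. In the pooled difference 24 rows (4.01%) were higher and 32 (5.35%) lower in mastitis. For the known miRNAs alone, above in both, below in both and opposite were 10, 7 and 1 of 18 rows (13.7% of the 131 known miRNAs), and the 1 was miR-122. Among the 10 above, miR-27b, miR-6123, miR-2419-5p, miR-15b and miR-30b-5p were unread in all healthy cows. Their side was thus fixed by the rule for testing. The median limma difference was 0.02 over all rows and 0.24 over the known miRNAs, so a known miRNA of average behaviour already lay slightly above 0.

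**Figure D2:**
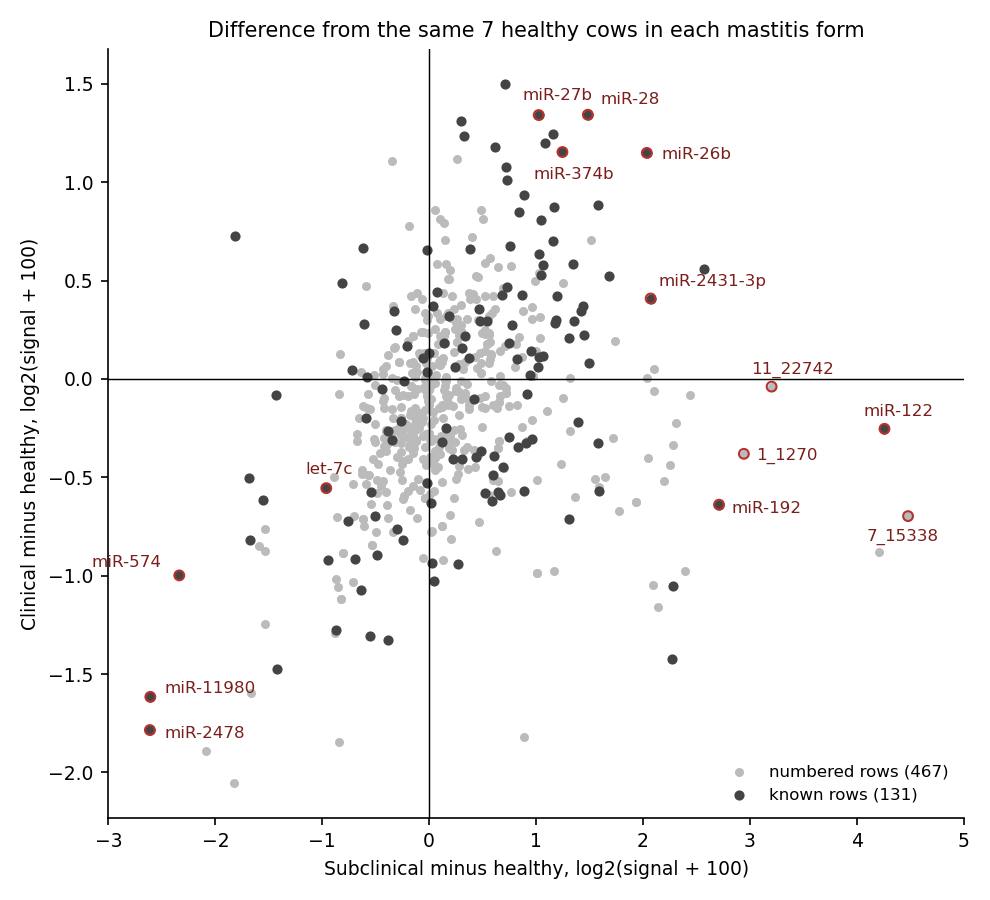
Each point is 1 of the 598 tested rows, with its limma difference in subclinical minus healthy cows on the horizontal axis and in clinical minus healthy cows on the vertical axis, in log2(signal + 100). Both axes use the same healthy cows; miR-2478 and miR-11980 lie farthest left and below 0, and miR-122 and 7_15338 lie far right below the horizontal line.

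Only 8 of the 598 rows were under an unadjusted p of 0.05 by limma in each form with the same sign. They were 5 of the 131 known and 3 of the 467 numbered rows. Both forms share the healthy cows, which by itself makes a small p in each more frequent, so this count is a description. The known ones were let-7c, miR-11980 and miR-2478, below healthy cows, and miR-27b and miR-374b, above them. The numbered ones were 2_3123 and NKLS02000910.1_47025, below, and 14_27076, above. None of the 8 passed the adjusted threshold in the limma fit of both forms together.

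The scale of the known rows bears on every direction below. With 1 scale for known and numbered rows together, edgeR put the median of the known miRNAs at 1.24, against 0.22 with a scale for each, since mastitis libraries held more known reads. Changes under that alternative are therefore read against 1.24.

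let-7c, a member of the let-7 family that represses growth genes and accompanies differentiation, lay below the healthy mean in all 14 mastitis cows. That mean, 20591, lay above the healthy median, so most healthy cows lay below it too. Its signal was 7517, 10531 and 18072 (lowest, median, highest) in mastitis cows, against 8829, 18952 and 37303 in healthy cows. Of the 7 healthy cows, 3 lay within the mastitis range, and healthy 7 lay at its low end. The limma difference was -0.76 (SE 0.21, adjusted p = 0.379), with -0.96 in subclinical and -0.55 in clinical cows. edgeR gave -0.48 (adjusted p = 0.621), and edgeR with 1 scale for all rows turned the sign round, to 0.86, which lies below the 1.24 of the known median. Without healthy 7, limma called let-7c (-0.94, adjusted p = 0.0217), together with miR-2478 and miR-574.

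miR-574 had a signal of 1747, 5275 and 28501 in mastitis cows, against 4685, 20270 and 49624 in healthy cows. The subclinical cows lay between 1879 and 11236 and the clinical cows between 1747 and 28501, so the clinical group overlapped the healthy one over most of its range. The limma difference was -1.67 (SE 0.47, adjusted p = 0.379), and edgeR gave -1.46 (adjusted p = 0.322). In subclinical cows the limma difference was -2.34 (adjusted p = 0.0257), in clinical cows -0.999 (adjusted p = 0.767), and between the forms 1.34 (adjusted p = 0.223). With the known reads as a covariate the limma difference was -0.47 (adjusted p = 0.678) and depth and disease cannot be told apart here. Without healthy 7, limma called it (-2.01, adjusted p = 0.0439).

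miR-11980, miR-1260b and miR-11972 showed the same order, each with 13 of 14 mastitis cows below the healthy mean. These healthy means, 2665, 5368 and 2454, lay above the healthy medians given below. Most healthy cows thus lay below them too, and the counts do not show a separation. In RefSeq ARS-UCD2.0 their genes lie within the protein-coding genes BRAT1, MAML2 and BIRC6. miR-11980 ran over 0, 237 and 5523 in mastitis cows against 342, 1444 and 7246 in healthy cows (limma -2.11, SE 0.66, adjusted p = 0.452). Its highest mastitis value was clinical 5, without which the ratio of means was 6.86-fold lower in place of 3.55-fold, and without healthy 3, healthy 6 and clinical 4 it was 1.27-fold lower. miR-1260b ran over 322, 2326 and 6137 in mastitis cows against 1802, 4107 and 10511 in healthy cows (limma -1.25, SE 0.48, adjusted p = 0.456). miR-11972 ran over 0, 863 and 2661 in mastitis cows against 481, 1672 and 7393 in healthy cows (limma -1.45, SE 0.61, adjusted p = 0.514). For miR-11972 the forms lay level, at -1.42 in subclinical and -1.47 in clinical cows. Its 2.63-fold lower mean was 1.75-fold lower without healthy 5. With 1 scale for both kinds of row, edgeR put miR-1260b at 0.03 and miR-11972 at 0.22, on the other side of 0 and below the known median of 1.24. With known reads as a covariate, limma put miR-11980 at -1.16 and miR-1260b at -0.38.

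**Figure D3:**
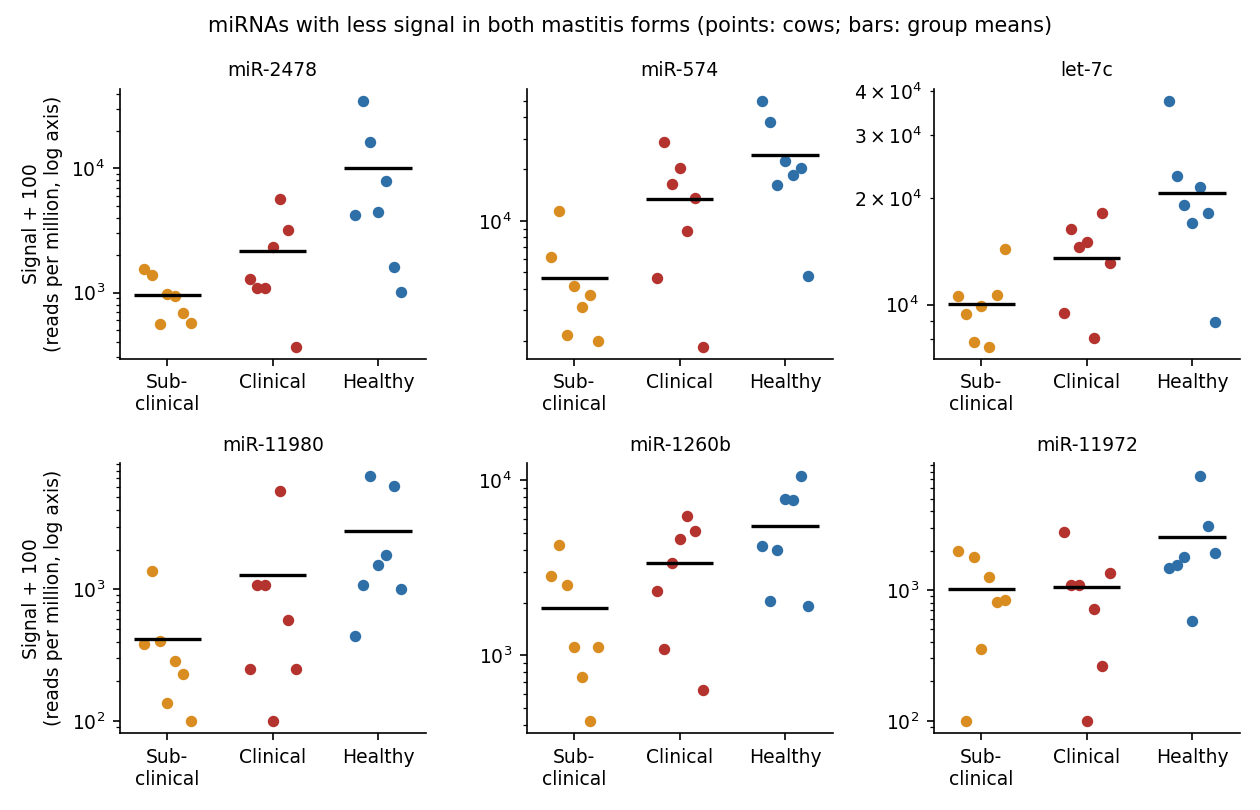
Each point is 1 cow and each bar a group mean, for 6 miRNAs with less signal in both forms, as signal + 100 on a log axis. For miR-2478 the subclinical mean is 848, the clinical 2039 and the healthy 9914, and the mastitis cows overlap the lower healthy cows in every panel.

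let-7b, one of the most abundant known miRNAs here, averaged 72354 ± 13815 in mastitis and 91440 ± 21401 in healthy cows. The limma difference was -0.33 (SE 0.14, adjusted p = 0.514), while edgeR put it at 0.03, DESeq2 at 0.37 and edgeR with 1 scale at 1.37. Its side of 0 thus depended on the scaling. It lay below the known median by limma (0.24), edgeR (0.22) and DESeq2 (0.52), and above it with 1 scale (1.24). miR-107, miR-361 and miR-141 were the last of the 10 with the smallest limma p among the 28 known miRNAs below healthy cows in both forms. miR-107, encoded within the pantothenate kinase gene PANK1, was read in 6 of 14 mastitis and 4 of 7 healthy libraries, on 29 and 9 reads (limma -1.07, adjusted p = 0.597; 0.08 by edgeR with 1 scale). Its 5.62-fold lower mean was 3.32-fold lower without healthy 3. miR-361, encoded within CHM, was read in 4 of 14 mastitis and 3 of 7 healthy libraries, on 12 and 7 reads (limma -0.85, adjusted p = 0.61). miR-141, an epithelial miRNA that represses the ZEB factors, was also read in 4 of 14 mastitis and 3 of 7 healthy libraries, on 10 and 7 reads (limma -0.80, adjusted p = 0.662). With so few reads, single libraries moved the ratios of these 3 by over 1.5 times: miR-361 was 7.33-fold lower in mastitis, but 4.46-fold without healthy 4 and 4.85-fold without healthy 5, and leaving out subclinical 5 raised it. miR-141 was 8.79-fold lower without clinical 5 and 3.08-fold lower without healthy 7.

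Among the 10 named miRNAs on the higher side, miR-374b and miR-28 lay nearly level in the forms. miR-374b lies in a long noncoding transcript beside MIR421 in RefSeq ARS-UCD2.0. Its signal was 1007, 2375 and 5024 in mastitis cows, against 0, 1444 and 2523 in healthy cows. Of the 14 mastitis cows, 12 lay above the healthy mean, but the highest healthy cows lay inside the mastitis range. The healthy median also lay above that mean, so most healthy cows did too. The mean was 2315 ± 995 in mastitis and 1306 ± 931 in healthy cows, 1.77-fold higher, on 430 and 28 reads. The limma difference had a 95% interval of 0.25 to 2.15 (SE 0.46, adjusted p = 0.456), with 1.25 in subclinical and 1.15 in clinical cows, and edgeR gave 1.11 (adjusted p = 0.52). With single libraries left out the limma difference ran from 0.65 to 1.44. The fold was 1.52 without healthy 5, where the signal was 0.

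miR-26b, miR-29a and miR-28 were read in most mastitis libraries and few healthy ones. They reached the 7 libraries needed for testing mainly through the mastitis libraries, which were on average deeper. Their higher side is therefore partly set by that rule and is weak support. miR-26b, encoded within the phosphatase gene CTDSP1, ran over 0, 518 and 1804 in mastitis cows against 0, 0 and 1672 in healthy cows (limma 1.59, SE 0.61, adjusted p = 0.456). Its healthy mean came almost wholly from healthy 3, where 3 reads stood for 1672; without that library the ratio of means was 20.9-fold higher in place of 2.37-fold. miR-29a, which represses collagen messages, ran over 0, 976 and 2568 in mastitis cows against 0, 0 and 1522 in healthy cows (limma 1.57, SE 0.65, adjusted p = 0.508). It was higher mainly in subclinical cows, at 2.57, against 0.56 in clinical cows, and the ratio of means was 6.18-fold without healthy 5, in place of 2.90-fold. miR-28, encoded within LPP and known from lymphocytes, was read in 11 of 14 mastitis and 1 of 7 healthy libraries (limma 1.41, SE 0.61, adjusted p = 0.514).

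miR-27b, which lies with MIR23B and MIR24-1 in one cluster and represses lipid-metabolism genes, was read in 9 of 14 mastitis libraries and in none of the 7 healthy ones. Its signal was 0, 135 and 814 in mastitis cows, on 35 reads. In the healthy cows it was 0 of 20329 known reads. That count allows up to 0.0148% of them (3 counts over the group, a signal of 148), and the mastitis mean of 201 was 1.36 times that limit. The limma difference was 1.18 (SE 0.42, adjusted p = 0.456), with 1.02 in subclinical and 1.34 in clinical cows. miR-2419-5p, miR-15b, miR-30b-5p and miR-6123 were likewise at 0 in all healthy cows, and each was read in 7 of 14 mastitis libraries. A row at 0 in all healthy cows could enter the test only through 7 or more mastitis libraries, which were also the deeper ones, so the side of these 5 miRNAs was fixed by the filter and supports nothing. The mean was 1.68 times the same limit for miR-2419-5p, 1.27 times for miR-30b-5p and 1.16 times for miR-15b, while the miR-6123 mean of 123 was under the limit. The miR-30b-5p mean was under it too, at 100.7, without clinical 5, and the miR-15b mean was 132 without subclinical 6, 124 without clinical 4 and 146 without clinical 6. Such limits hold for counting error alone, as PCR duplicates were not marked. The limit pools reads over the healthy libraries, whereas the mastitis means weigh each library alike, so these ratios are not lower bounds on a fold. miR-2431-3p was read in 9 of 14 mastitis libraries and 1 of 7 healthy ones, so it too entered the test mainly through mastitis libraries. By limma it lay at 2.07 in subclinical (adjusted p = 0.0237) but 0.41 in clinical cows (adjusted p = 0.918).

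**Figure D4:**
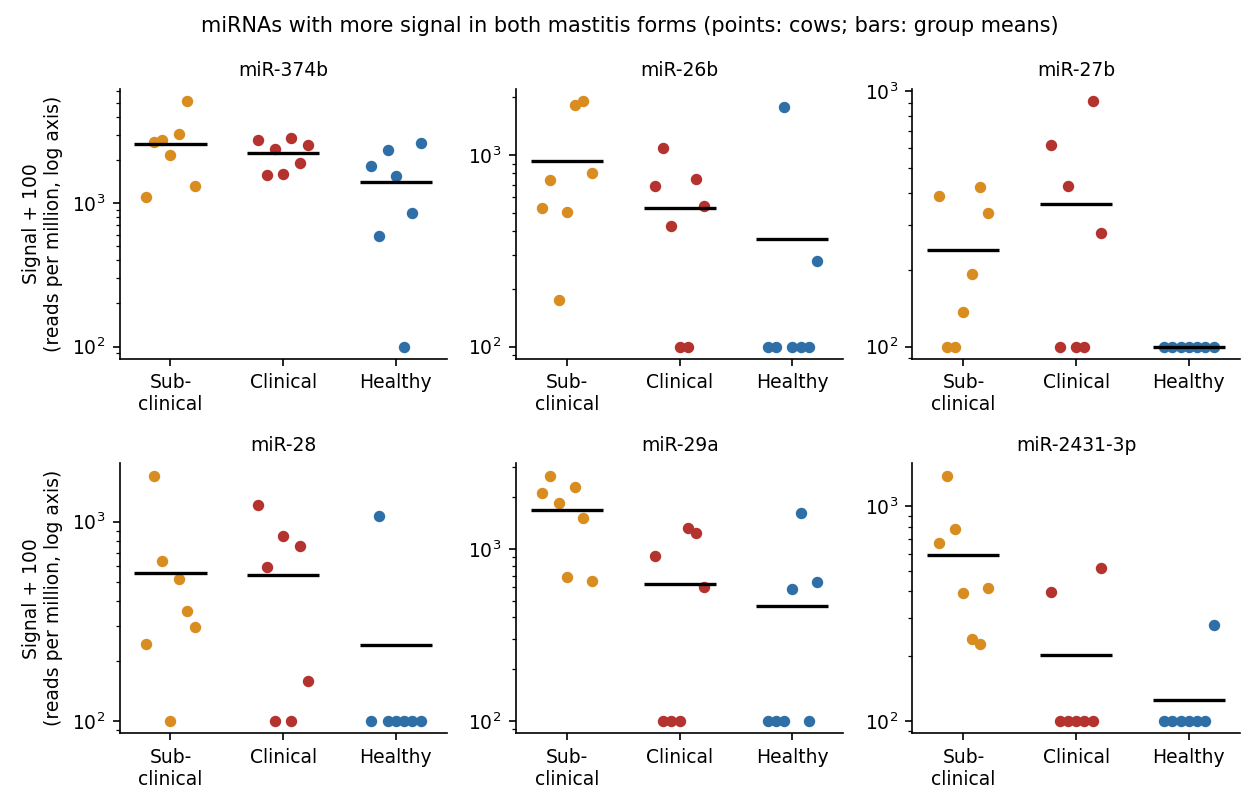
Each point is 1 cow and each bar a group mean, for 6 miRNAs with more signal in both forms, as signal + 100 on a log axis, so that a cow with no read sits at 100. miR-374b is read in all 14 mastitis cows and averages 2315 there and 1306 in healthy cows; the other panels have most healthy cows at 100.

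The well-read miRNAs of leukocytes were not told apart between mastitis and healthy cows. miR-223, the neutrophil miRNA, averaged 21874 ± 9099 in mastitis and 19103 ± 10091 in healthy cows, a limma difference of 0.24 with a 95% interval of -0.40 to 0.87. miR-142-3p, found throughout leukocytes, averaged 6193 ± 4153 in mastitis and 5479 ± 1531 in healthy cows, with an interval of -0.72 to 0.65. miR-150 of mature lymphocytes averaged 15475 ± 5746 in mastitis and 14605 ± 7144 in healthy cows (-0.45 to 0.75). The 3 limma intervals lie between -0.72 and 0.87, and do not show that the groups were alike. edgeR put miR-223, miR-142-3p and miR-150 at 0.51, 0.47 and 0.49, beside a known median of 0.22. DESeq2 put them at 0.83, 0.77 and 0.82, beside a known median of 0.52. Neither tool gave any of them an adjusted p under 0.05. limma put miR-142-3p at -0.03, so its side of 0 depended on the tool.

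The inflammation-induced list had 3 tested members of 7 rows: miR-21-5p, miR-221 and miR-222. miR-146a, miR-146b, miR-147 and miR-9-5p were too seldom read to test. miR-21-5p averaged 14747 ± 7119 in mastitis and 16691 ± 6650 in healthy cows (limma interval -0.98 to 0.43). It lay at -0.28 by limma, 0.19 by edgeR and 0.52 by DESeq2, so its side of 0 depended on the tool. miR-221 averaged 678 ± 382 in mastitis and 509 ± 801 in healthy cows (limma interval -0.08 to 2.48). None of the 3 passed by limma or edgeR, and the list's median limma difference was 0.90, that of miR-222.

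In the other lists limma called no member in either direction. Their medians are set beside 0.24 over the known miRNAs and 0.02 over all rows. The myeloid list had a median of 0.22 over 3 members, the lymphocyte list 0.52 over 4, the red cell list (miR-486 and miR-451) 0.51 over 2 and the platelet list 0.41 over 3. By edgeR these 4 medians were 0.47, 0.62, 0.70 and 0.13, beside 0.22 over the known miRNAs. The endothelial miR-126-3p and miR-126-5p had a median of 0.08 by limma, 0.55 by edgeR and 0.85 by DESeq2. The known median by DESeq2 was 0.52. The more abundant miR-126-5p averaged 199733 ± 96558 in mastitis and 195838 ± 53267 in healthy cows. The miR-17-92 and miR-106b-25 list, linked to proliferation, had a median of 0.81 over 7 members, 5 of them above healthy cows in both forms, and 0.44 by edgeR. The miR-29 family had a median of 0.42 over 4 members, the miR-23, miR-27 and miR-24 list 0.27 over 5, and the list of miR-15, miR-16, miR-103 and their relatives -0.39 over 5. The let-7 family had a median of -0.31 over 10 members, of which 3 were below and 1 above in both forms and 6 had opposite signs. By edgeR its median was 0.17, so its side of 0 did not hold under both scalings. Measured from the known median, the family's median was -0.55 by limma and -0.05 by edgeR.

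Udder epithelial miRNAs were hardly present in these serum vesicles. Of 9 rows, 2 were tested, miR-200c and miR-141, and miR-200a, miR-200b, miR-429, miR-205, miR-375, miR-148a and miR-30a-5p were not. The summed signal of the 9 rows was 773 ± 702 (0 to 2244) in mastitis and 1331 ± 816 (0 to 2342) in healthy cows. Of the smooth muscle and stroma list, miR-143 and miR-145 were tested, and its 7 rows summed to 674 ± 720 in mastitis and 1327 ± 1480 in healthy cows. The last list, miR-2478, miR-12034, miR-1246, miR-2431-3p, miR-574 and both arms of miR-423, was put together from what had shifted in these same data, so its 1 edgeR call, miR-2478, is not independent evidence.

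More rows were called between the forms than in the pooled comparison. Between clinical and subclinical cows limma called 21 of 598 rows (3.51%) and edgeR 35 (5.85%). All 21 limma calls lay above healthy cows in subclinical and below them in clinical disease. Of the 35 edgeR calls, 30 had these signs, 2 had the reverse and 3 lay on the same side of healthy cows in both forms. The 21 limma calls were not all separate signals. Rows 2_5243 and 2_5244 had equal values, and 7_15338 and 3_6921 averaged 9829 and 10004 in subclinical cows. Against healthy cows, limma called 11 rows in subclinical (1.84%; edgeR 9, 1.51%) and 0 in clinical cows (0%; edgeR 1, 0.167%). The 3 known miRNAs among the 21 were miR-122, miR-215 and miR-192, all of the liver and gut epithelium list, whose 6 tested members all had opposite signs in the forms by limma. miR-122, the main hepatocyte miRNA, averaged 11473 ± 9982 in subclinical, 736 ± 1178 in clinical and 1090 ± 1761 in healthy cows (clinical minus subclinical -4.51, limma adjusted p = 0.021). miR-192 averaged 3777 ± 2533 in subclinical, 369 ± 550 in clinical and 1048 ± 1879 in healthy cows (-3.35, adjusted p = 0.0362). The list's summed signal was 9748 ± 12017 in mastitis as a whole and 4221 ± 5429 in healthy cows, a mean that describes neither form. By edgeR the list's median was -0.46, against 0.38 by limma.

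miR-1246, one of the most abundant known miRNAs here, averaged highest in subclinical cows. It averaged 192744 ± 158785 in subclinical, 47767 ± 28388 in clinical and 49802 ± 24589 in healthy cows. The subclinical cows ran from 28558 in subclinical 4, below the healthy mean, to 455217 in subclinical 2. The miR-1246 difference between the forms was -1.91 by limma (adjusted p = 0.0905), -2.23 by edgeR (adjusted p = 0.0158) and -2.31 by DESeq2 (adjusted p = 0.000715). In clinical minus healthy cows limma gave -0.33 and DESeq2 0.11, so the clinical side of 0 depended on the tool. Pooled, it lay at 0.63 with a 95% interval of -0.47 to 1.73.

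**Figure D5:**
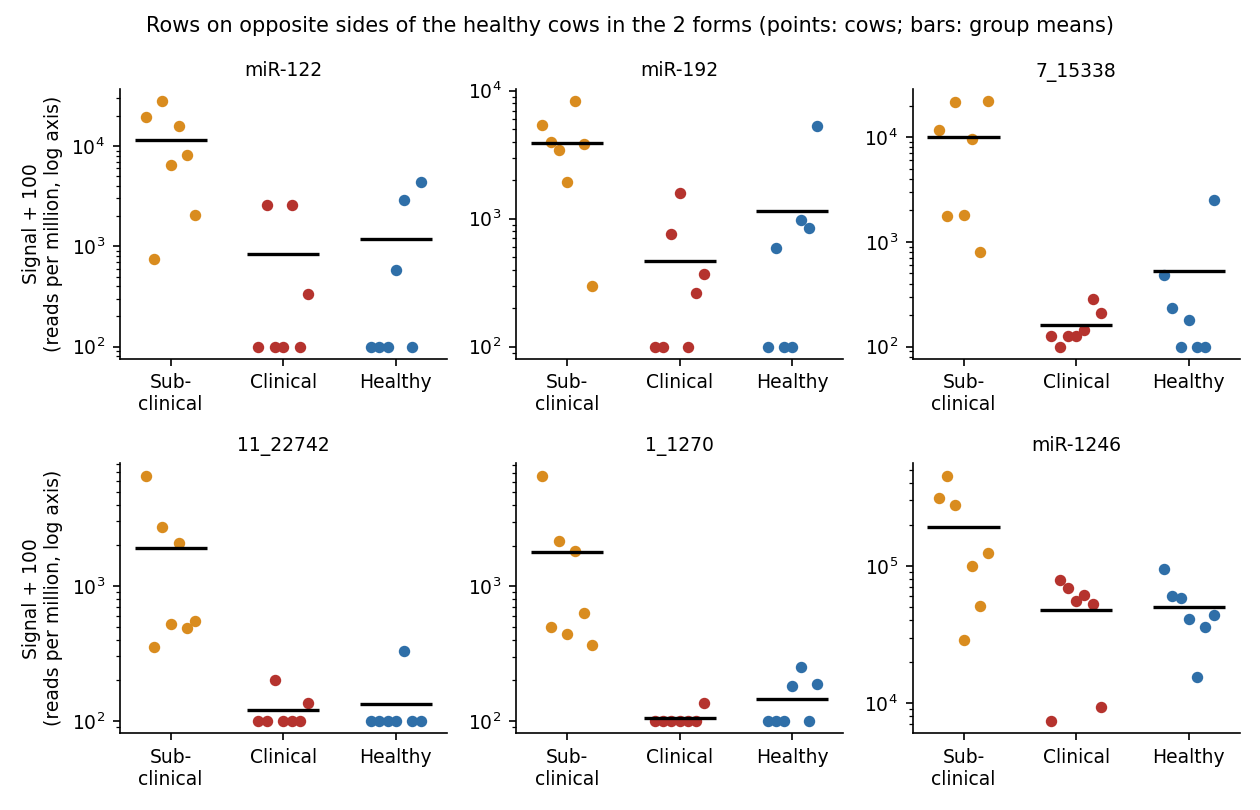
Each point is 1 cow and each bar a group mean, for 6 rows whose forms lie on opposite sides of the healthy mean, as signal + 100 on a log axis. Most subclinical cows are high in each panel, though single ones lie among the healthy cows, and the clinical cows lie with or below the healthy ones. For miR-122 the mean is 11473 in subclinical, 736 in clinical and 1090 in healthy cows.

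The numbered rows with the smallest pooled p on the higher side were of this kind. Row 7_15338 averaged 9829 ± 9186 in subclinical, 59.3 ± 65.3 in clinical and 425 ± 874 in healthy cows. Its pooled limma difference of 1.89 (adjusted p = 0.456) joined 4.48 in subclinical cows and -0.70 in clinical cows, and clinical minus subclinical was -5.18 (adjusted p = 0.000182). Row 11_22742 averaged 1800 ± 2262 in subclinical, 19.4 ± 38.1 in clinical and 32.7 ± 86.5 in healthy cows (pooled 1.58, adjusted p = 0.415; clinical minus subclinical -3.24, adjusted p = 0.000719). Row 1_1270 averaged 1704 ± 2263 in subclinical, 5.11 ± 13.5 in clinical and 46.0 ± 61.7 in healthy cows (pooled 1.28, adjusted p = 0.456; clinical minus subclinical -3.32, adjusted p = 0.000313). The pooled differences of these 3 rows thus came from the subclinical cows.

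On the lower side the 3 numbered rows lay below healthy cows in both forms. Row 2_3123 was read well in every library, at 1019, 1820 and 3434 in mastitis cows against 2408, 3069 and 3343 in healthy cows. The 7 clinical cows all lay below the lowest healthy cow, while the subclinical cows reached above the highest. Such a split of clinical from healthy cows was seen in 2 of the 598 rows (0.334%). The limma difference was -0.68 (SE 0.22, adjusted p = 0.452), with -0.61 in subclinical and -0.75 in clinical cows and means of 1912 ± 751 in mastitis and 2943 ± 326 in healthy cows. NKLS02000910.1_47025 averaged 137 ± 117 in mastitis and 355 ± 208 in healthy cows (-0.94, adjusted p = 0.452), on 56 and 57 reads. Row 20_36099 was read in none of the 7 subclinical libraries, in 5 of 7 clinical and in 5 of 7 healthy ones, on 10 reads in mastitis and 17 in healthy cows (-0.70, adjusted p = 0.452).

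The precision available is set by depth and by the spread between cows. The 27 known miRNAs read in all 21 libraries had 95% intervals of ±0.29 to ±1.16 around the limma difference, with a median of ±0.63. Of these 27, 7 lay above healthy cows in both forms, 8 below in both and 12 had opposite signs, and the 5 with an unadjusted p under 0.05 were all lower in mastitis. Their median difference was -0.02 by limma and 0.38 by edgeR, so the centre of the well-read miRNAs itself depended on the scaling.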

How the data were processed

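The deposited table gave a signal for each of 847 miRNA rows in each of 21 libraries. Per the labels' protocols, RNA came from serum vesicles and TruSeq small RNA libraries. Bowtie, edgeR and the cattle genome ARS-UCD1.2 are named in the submitters' processing notes; no source used here gives their settings. The 3 columns of group means in the deposited table were not used. The table's name speaks of TPM, but known and numbered rows were each scaled to their own total, so the deposited values were treated as a signal on a scale of 1000000 for the reads of the row's kind. Dividing by the value of 1 read gave whole reads within 0.05 for 10115 of 10115 values above 0 (100%), which fixed the depths. Of the numbered rows, 67 held the same values as another row. Every pair of libraries differed by more than sampling noise in a chi-square test of their reads.

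The main test was limma 3.58.1 with an intensity trend on log2(signal + 100), with 3 group means, 18 residual degrees of freedom and a two-sided Benjamini-Hochberg adjusted p under 0.05 over 598 rows. A log2 difference on this scale understates the change of low rows. edgeR 4.0.16 and DESeq2 1.42.0 on the recovered reads, scaled within known and numbered rows, were alternatives, run in R 4.3.3. The planned test assumed one normalized unit for all rows, and scaling by kind of row was known from an earlier analysis. p-values measure the spread between these cows. limma and edgeR were also run on simulated reads, with the same spread setting for all rows and any set change equal in both forms. Those settings differ from the data, and no result here rests on that run. Library measures used exact permutation tests.

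Named miRNAs were the 10 known ones on each side with the smallest limma p, a mean signal of at least 10 and the same sign in both forms, any called one, 3 numbered rows on each side, and up to 2 members of each of 15 lists. Members and lists were chosen with earlier results of these data known. miRNA genes were matched by name in RefSeq ARS-UCD2.0 (48 of 48), with neighbours within 10000 bases, and no coordinates are given because the builds differ.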

Additional observations from a re-analysis of the deposited data

Results flagged for a closer look

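Among 90 groups of 7 cows examined, 12 held 1 cow that stood apart. Its gap to its nearest neighbour, as a share of the group's range, was above Dixon's 95% critical value. Chance flags about 1 group in 20 where values are normally distributed, which was not tested for these signals. In 6 of the 12 the other cows were all at 0, so the gap share was 1 by construction and that rate does not hold for them. Of the miRNAs higher in mastitis, miR-2431-3p stood alone at 180.2 in healthy 7, miR-26b at 1672 in healthy 3 and miR-28 at 973.7 in healthy 2, each against healthy cows mostly at 0. miR-6123 stood at 963.1 in subclinical 2 and miR-30b-5p at 1227 in clinical 5. Of the miRNAs lower in mastitis, miR-107 stood at 355.3 and miR-361 at 59.21 in clinical 7, and miR-141 at 306.8 in clinical 5. Of the numbered rows, 11_22742 stood at 228.8 in healthy 5 and 1_1270 at 35.78 in clinical 7.

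Clinical 7 also stood apart in depth, with 33776 known reads, and healthy 7 in its known share of reads, 32.88%. Clinical and subclinical cows differed by test in 3 numbered rows named for the pooled comparison: clinical minus subclinical was -3.24 for 11_22742, -5.18 for 7_15338 and -3.32 for 1_1270 on the log2 scale (limma adjusted p 0.000719, 0.000182 and 0.000313).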

How the results depend on the processing

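The limma count of 0 stayed 0 with a pseudocount of 1 or 1000, with no filter, with a signal above 0 in at least 14 libraries, with median-ratio scaling, with 1 mean for the 14 mastitis cows, with known reads as a covariate, without the trend, without healthy 3, healthy 6 and clinical 4, and by edgeR with 1 scale. It was 1 by edgeR and 1 by DESeq2, 2 with known miRNAs alone (miR-2478 and miR-574), 3 without the replicate 7 libraries (let-7c, miR-2478 and miR-574) and 0 to 3 when single libraries were left out, with 3 (the same 3 miRNAs) without healthy 7. Each called miRNA lay on the same side in both forms, so the counts of those that moved alike were the same. The cause of these differences was not tested.

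The replicate block gave 1 limma call, miR-574 (adjusted p = 0.0331). Replicate numbers were not taken to pair cows: same-numbered libraries correlated at -0.17 to 0.35, with 4 of 21 pairs over 0.1, and 6 of 21 libraries correlated best with their own number.

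The edgeR fits with libraries left out were chosen after seeing the data. The edgeR count was 0 without healthy 3, healthy 6 and clinical 4, 6 without the replicate 7 libraries (1 higher and 5 lower), and 0 to 3 without single libraries: 0 without subclinical 2, clinical 2, clinical 6, healthy 2 or healthy 5, and 3 without healthy 7. The counts moving alike in both forms were the same.

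Without healthy 3, healthy 6 and clinical 4, mastitis minus healthy was 10027 known reads (exact permutation p = 0.0536) and 39.0 miRNAs read (exact permutation p = 0.0501). Over single libraries left out, known reads differed by 8068 to 10564, miRNAs read by 37.7 to 48.8, and the known share by 13.0 to 18.6 percentage points, with an unadjusted exact p under 0.05 without clinical 2, 3, 4 or 5 or healthy 7. The top-10 share differed by -0.41 to 2.77 points, and by -0.38 without the replicate 7 libraries. By edgeR with 1 scale, let-7c was at 0.86, let-7b at 1.37, miR-11972 at 0.22, miR-107 at 0.0751 and miR-1260b at 0.0307. let-7b was also above 0 by edgeR (0.0269) and DESeq2 (0.37). Depth limits the rows with few reads: 1 known read in healthy 6 was worth a signal of 751.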
